A study of Homo sapiens with 14 samples.

Results

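YAP1, WWTR1 (the gene of TAZ) and 8 genes known as their targets or feedback partners were followed in KYSE510, an esophageal squamous cell carcinoma line, in which EZH2 or LAT1 had been silenced with small interfering RNA (siRNA). The members were LATS2, CYR61, CTGF, THBS1, AMOTL2, ANKRD1, AXL and AJUBA beside YAP1 and WWTR1, taken by gene name, so they were 10 of the 63677 genes in each RNA table. CYR61 and CTGF are the older symbols of CCN1 and CCN2. EZH2 methylates histone H3 as the catalytic subunit of the Polycomb complex PRC2, and LAT1, encoded by SLC7A5, is a transporter of large neutral amino acids. RNA was sequenced 48 h after transfection in 2 series of 6 libraries, with 2 libraries per group. The EZH2 series held siEZH2-1, siEZH2-2 and the control siNC, and the LAT1 series held siLAT1-2, siLAT1-3 and its own siNC. All groups are labelled as the same cell line, and the labels give no other allele or agent for them. The siNC groups of both series nevertheless differed widely in some genes, given at the end, so each comparison stays within its series. Levels are FPKM, that is, reads or fragments relative to the length of the gene and the depth of the library.

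YAP and TAZ are transcriptional coactivators without a DNA-binding domain of their own. They act mainly through the TEAD transcription factors. The Hippo kinases MST1 and MST2 activate LATS1 and LATS2, which phosphorylate YAP and TAZ and so keep them in the cytoplasm or mark them for degradation. When that brake is off, YAP and TAZ enter the nucleus and raise genes such as CYR61, CTGF and ANKRD1, along with LATS2 and AMOTL2, whose products restrain them again. Because this control acts largely on the proteins, RNA levels of YAP1 and WWTR1 do not report their activity. In squamous epithelia the pathway is known for its part in the growth of basal cells.

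The siRNA targets were checked first. EZH2 stood at 40.6% of siNC with siEZH2-1 and 36.4% with siEZH2-2, and SLC7A5 stood at 20.3% of siNC with siLAT1-2 and 26.0% with siLAT1-3. SLC7A5 also fell in the EZH2 series, to 24.9% of siNC with siEZH2-1 and 78.6% with siEZH2-2, so the siRNAs of that series were unlike in this second gene. Between 11465 and 11794 genes reached 1 FPKM in a library, and estimated depths were 21140000 to 27120000 reads or fragments per library for EZH2 silencing and its siNC, and 12760000 to 16460000 for LAT1 silencing and its siNC. All 10 squamous markers examined averaged at least 1 FPKM in both series, KRT5 being the highest with means of 490 and 468 FPKM. The lowest was KRT17 at 2.2 FPKM in the EZH2 series and DSG3 at 19.8 FPKM in the LAT1 series, so KRT17 differed widely between the series. Some of these markers moved with silencing. Of the 10, 3 fell with siEZH2-1, beside 11.4% of all genes, and 4 with siEZH2-2, beside 10.9%. With siLAT1-2 6 fell, beside 13.9%, and with siLAT1-3 3 fell, beside 13.6%. With any of these siRNAs alone 0 rose, beside 15.9%, 13.9%, 18.6% and 17.9% of all genes in the same order. With the siLAT1 mean 1 rose, beside 19.3%. Their summed level was 1370 to 1372 FPKM with siNC of the LAT1 series, 1198 to 1201 FPKM with siLAT1-2 and 1263 to 1288 FPKM with siLAT1-3. For EZH2 it was 1181 to 1267 FPKM with siNC, 1199 to 1224 FPKM with siEZH2-1 and 1059 to 1140 FPKM with siEZH2-2. Their part in the results below was not tested. The summed level of 8 fibroblast markers was 0.97 to 1.52 FPKM per library of the EZH2 series, where DCN, PDGFRA and COL1A2 were listed at 0 throughout, and 2.09 to 2.56 FPKM for LAT1. The sums were at most 0.79 FPKM for 7 immune markers and at most 1.31 FPKM for 6 endothelial markers. In bulk RNA, fewer cells of a type and less RNA per cell cannot be told apart.

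The sequence just upstream of 3 members is shown because they are reported target genes whose RNA took different courses below. Each run is the 250 bases before the annotated start site, 5′ to 3′ on the gene's strand, from RefSeq on GRCh38.p14. Capitals mark the letters GGAATG, the core of the TEAD motif, or TGANTCA, the AP-1 motif.
CTGF, chr6:131951373-131951622, minus strand: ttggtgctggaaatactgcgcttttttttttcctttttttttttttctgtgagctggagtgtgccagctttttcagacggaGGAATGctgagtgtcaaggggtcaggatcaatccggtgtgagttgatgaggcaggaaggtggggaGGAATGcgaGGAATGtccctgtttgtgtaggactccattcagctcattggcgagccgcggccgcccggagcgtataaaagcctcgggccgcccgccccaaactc
ANKRD1, chr10:90921088-90921337, minus strand: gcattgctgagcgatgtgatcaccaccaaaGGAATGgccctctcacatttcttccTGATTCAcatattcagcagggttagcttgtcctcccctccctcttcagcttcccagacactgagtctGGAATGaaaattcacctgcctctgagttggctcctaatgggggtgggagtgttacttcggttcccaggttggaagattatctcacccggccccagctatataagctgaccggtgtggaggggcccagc
THBS1, chr15:39580829-39581078, plus strand: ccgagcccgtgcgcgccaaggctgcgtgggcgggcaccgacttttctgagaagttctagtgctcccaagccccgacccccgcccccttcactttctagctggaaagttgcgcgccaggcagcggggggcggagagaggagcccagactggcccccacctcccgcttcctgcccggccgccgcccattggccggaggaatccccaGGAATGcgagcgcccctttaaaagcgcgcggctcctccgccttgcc
The CTGF run holds GGAATG 3 times, starting 169, 104 and 95 bases before the start site. The ANKRD1 run holds it 2 times, starting 220 and 128 bases before the start, with TGATTCA between them at 195 bases. The THBS1 run holds it once, 46 bases before the start. Both strands were searched, over windows from 250 bases before to 50 bases after the start, and the motifs do not overlap each other in these runs. CYR61 had no RefSeq promoter entry and was not searched. Of the 9 members with an entry, 5 held GGAATG, among them YAP1 at 162 bases before the start and LATS2 at 9 bases after it. The WWTR1 entry (chr3:149703274-149703523) lies inside the annotated span of the gene (149517235-149724788), not at its outer end. The members were picked as genes of this pathway, so the shares that follow are no test. In all 35116 promoters of the table the share was 14.03%. The AP-1 letters were in 1 of the 9 members and in 7.71% of all promoters, and the CArG core of SRF (serum response factor) was in 0 of the 9 and in 1.29% of all. These matches describe letters and say nothing about binding in KYSE510.

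WWTR1 was lower with all 4 siRNAs, while YAP1 passed the test as lower with none of them. WWTR1 (ENSG00000018408) stood at 13.72 and 12.03 FPKM in the siNC libraries of the EZH2 series, at 8.66 and 7.08 FPKM with siEZH2-1, and at 7.9 and 9.21 FPKM with siEZH2-2. After LAT1 silencing WWTR1 was compared with its own siNC, which held 9.66 and 8.58 FPKM, against 7.01 and 6.84 FPKM with siLAT1-2 and 6.31 and 6.13 FPKM with siLAT1-3. Every silenced library was below both siNC libraries of its series. On the log2(FPKM + 1) scale, the change from siNC was -0.65 ± 0.12 (SE) with siEZH2-1 (limma adjusted p = 0.00981) and -0.54 ± 0.12 with siEZH2-2 (0.0178). It was -0.35 ± 0.06 with siLAT1-2 (limma adjusted p = 0.00574) and -0.49 ± 0.06 with siLAT1-3 (0.00161). Both siRNAs of a series share its siNC libraries, so their changes are not independent. The calls in the EZH2 series were lost without siNC replicate 1, where limma's adjusted p was 0.0555 and 0.0911, and without siEZH2-1 replicate 2 (0.0520) or siEZH2-2 replicate 1 (0.0820) for the siRNA concerned. They were also lost without the filter on low values, at 0.0686 and 0.104, while the calls in the LAT1 series held under every alternative run.

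YAP1 (ENSG00000137693) stood at 25.35 and 22.33 FPKM with siNC in the EZH2 series, 27.19 and 23.11 FPKM with siEZH2-1, and 25.07 and 28.75 FPKM with siEZH2-2. The groups overlapped, and the changes of 0.07 (95% interval -0.18 to 0.33) and 0.17 (-0.09 to 0.42) on the log2 scale did not pass the test. In the LAT1 series YAP1 stood at 39.99 and 40.91 FPKM with siNC, 44.83 and 47.44 FPKM with siLAT1-2, and 40.23 and 37.86 FPKM with siLAT1-3. YAP1 rose by 0.18 ± 0.04 with siLAT1-2 (limma adjusted p = 0.0166). With siLAT1-3 the change was -0.05 (95% interval -0.15 to 0.05), which did not pass the test. The siLAT1-2 call was lost without siLAT1-2 replicate 2 (limma adjusted p = 0.0829), siNC replicate 1 (0.0938) or siNC replicate 2 (0.0607), and without the filter on low values (0.0808).

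**Figure D1:**
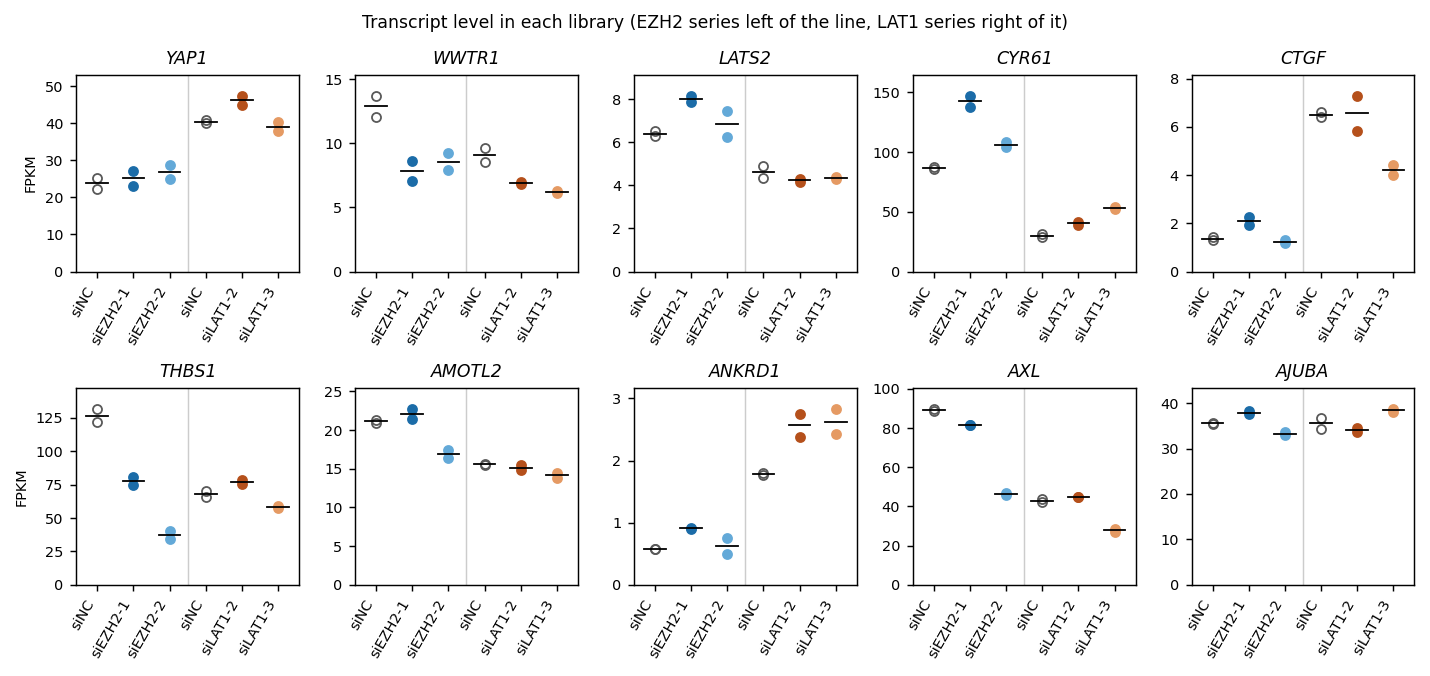
Level of each of the 10 members in FPKM, on linear axes from 0, in each library by group, with the EZH2 series left and the LAT1 series right of the grey line. Each point is 1 library (open for siNC) and each short line a group mean of 2 libraries. WWTR1 sits below both siNC libraries in all silenced libraries of each series, and CYR61 above them.

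The balance between both coactivators was computed as the share of WWTR1 in the summed FPKM of YAP1 and WWTR1, a quantity chosen after the values of the members had been seen. In the EZH2 series the share was 35.1% and 35.0% in the siNC libraries and 23.96% ± 0.36 (SD, n = 4) in the silenced libraries, which ran from 23.5% to 24.3%. For LAT1 it was 19.5% and 17.3% with siNC and 13.4% ± 0.57 (SD, n = 4) with both siRNAs, from 12.6% to 13.9%. The silenced libraries lay below both siNC libraries in each series, with differences between means of -11.1 and -4.99 percentage points. For LAT1 the difference was -3.93 points without siNC replicate 1 and -6.05 points without replicate 2. A two-sided exact permutation test gave p = 0.0667 in each series, the smallest that 15 regroupings of 4 against 2 libraries allow. The share was built from values already seen, so this p adds no support beyond the WWTR1 values above. It also treats libraries of 2 different siRNAs as 1 group. The summed level of both genes gave exact permutation p = 0.467 for siEZH2 and 0.867 for siLAT1. The latter pools siRNAs that lay on opposite sides of siNC (49.65 and 49.49 FPKM), at 51.84 and 54.28 FPKM with siLAT1-2 and 46.54 and 43.99 FPKM with siLAT1-3.

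Within the EZH2 series YAP1 and WWTR1 varied together between libraries of a group. Both were higher in siEZH2-1 replicate 1, siEZH2-2 replicate 2 and siNC replicate 1 than in the other library of the same group. The FPKM of all genes summed to 268304, 262179 and 258210 in those libraries and to a higher 275399, 273796 and 263852 in their partners. The part of this difference in the levels was not tested. The WWTR1 share, a ratio within each library, spread by 0.36 percentage points (SD) over the 4 silenced libraries.

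**Figure D2:**
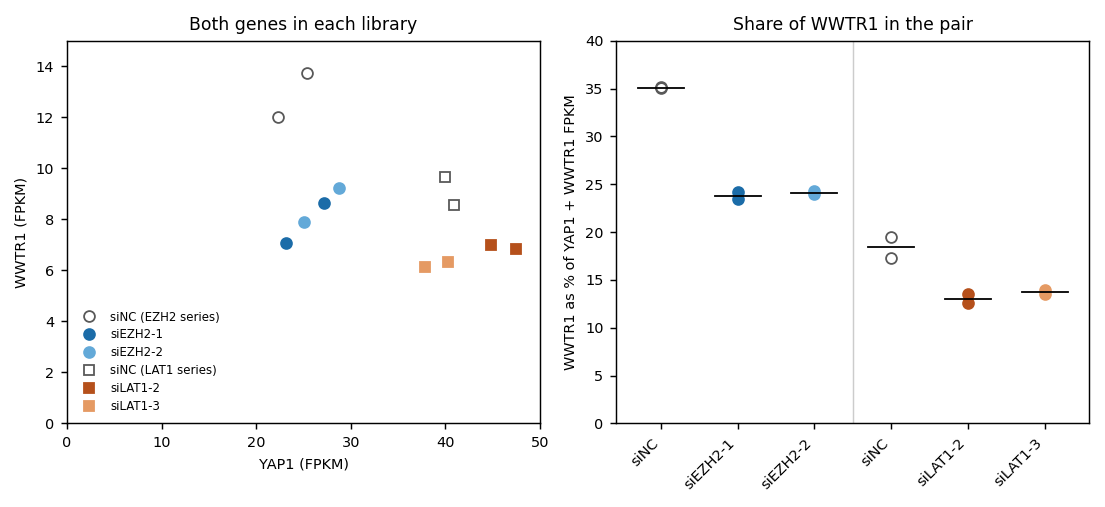
Left, WWTR1 against YAP1 in FPKM, and right, WWTR1 as a percentage of the summed FPKM of both, by group. Points are libraries (open for siNC) and short lines group means. The silenced libraries lie at 23.5% to 24.3% against 35.0% and 35.1% with siNC in the EZH2 series, and at 12.6% to 13.9% against 17.3% and 19.5% in the LAT1 series.

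Over all members, 4 of 9 tested passed with siEZH2-1, where 27.2% of all genes tested passed. Of these, 2 were higher and 2 lower, beside 15.9% higher and 11.4% lower over all genes. With siEZH2-2 the count was 5 of 9 against 24.8% of all genes, 1 higher and 4 lower beside 13.9% and 10.9%. With siLAT1-2 it was 5 of 10 against 32.5%, 4 higher and 1 lower beside 18.6% and 13.9%. With siLAT1-3 it was 6 of 10 against 31.4%, 2 higher and 4 lower beside 17.9% and 13.6%. With the mean of both siRNAs of a series it was 4 of 9 against 30.0% for siEZH2 and 5 of 10 against 34.5% for siLAT1. These counts rest partly on single libraries. The siEZH2-1 count was 2 without siEZH2-1 replicate 2 or siNC replicate 1, and the siEZH2-2 count was 2 without siEZH2-2 replicate 1 or siNC replicate 1 and 3 without siNC replicate 2. The siLAT1-2 count was 2 without siLAT1-2 replicate 2 or siNC replicate 1 and 3 without siNC replicate 2, and the siLAT1 mean count was 3 without either siNC library. The members' median log2 change was 0.07, -0.10, 0.03 and -0.10 in that order, beside 0.03, 0.03, 0.02 and 0.02 over all genes. The target genes therefore did not move in 1 direction, and they are described singly below.

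CYR61 (ENSG00000142871), a secreted matricellular protein and one of the most used readouts of YAP and TAZ, was higher with all 4 siRNAs. It stood at 87.45 and 85.49 FPKM with siNC, 137.73 and 147.21 FPKM with siEZH2-1, and 108.15 and 104.4 FPKM with siEZH2-2. Its levels in the LAT1 series were 28.76 and 31.48 FPKM with siNC, 39.06 and 41.63 FPKM with siLAT1-2, and 52.65 and 53.82 FPKM with siLAT1-3. No silenced library overlapped siNC. The log2 change was 0.71 ± 0.05 with siEZH2-1 (limma adjusted p = 4.97e-04) and 0.29 ± 0.05 with siEZH2-2 (0.0109). With siLAT1-2 it was 0.41 ± 0.05 (limma adjusted p = 0.00135) and with siLAT1-3 0.80 ± 0.05 (8.37e-05). CYR61 and WWTR1 thus moved in opposite directions with every siRNA. The siEZH2-2 call was lost without siEZH2-2 replicate 1 (limma adjusted p = 0.0576), siNC replicate 1 (0.0514) or siNC replicate 2 (0.0615).

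CTGF (ENSG00000118523), the close relative of CYR61 in the CCN family, did not follow it. It was low in the EZH2 series, at 1.29 and 1.45 FPKM with siNC, 1.92 and 2.26 FPKM with siEZH2-1, and 1.29 and 1.18 FPKM with siEZH2-2. CTGF was higher in the LAT1 series, at 6.62 and 6.41 FPKM with siNC, 5.84 and 7.3 FPKM with siLAT1-2, and 4.0 and 4.43 FPKM with siLAT1-3. CTGF thus lay above siNC only with siEZH2-1, where it rose by 0.38 ± 0.10 (limma adjusted p = 0.0329), and below it only with siLAT1-3, where it fell by 0.53 ± 0.10 (0.00696). The changes with siEZH2-2, -0.08 (95% interval -0.32 to 0.15), and siLAT1-2, 0.004 (-0.23 to 0.23), did not pass. The siEZH2-1 call was lost under quantile normalization (limma adjusted p = 0.0541), without the filter (0.130), and without siEZH2-1 replicate 1 (0.0536) or 2 (0.182) or siNC replicate 1 (0.169) or 2 (0.0750). The siLAT1-3 call was lost without siNC replicate 1 (0.0502) and without the filter (0.0569).

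ANKRD1 (ENSG00000148677), a muscle ankyrin repeat protein induced by YAP in many cell types, was near the limit of measurement. In the EZH2 series it stood at 0.58 and 0.57 FPKM with siNC, 0.92 and 0.9 FPKM with siEZH2-1, and 0.76 and 0.5 FPKM with siEZH2-2, below the mean of 1 FPKM needed for a test. The LAT1 series gave 1.76 and 1.8 FPKM with siNC, 2.38 and 2.75 FPKM with siLAT1-2, and 2.42 and 2.83 FPKM with siLAT1-3. All 4 silenced libraries of that series were above siNC, and ANKRD1 rose by 0.36 ± 0.09 with siLAT1-2 (limma adjusted p = 0.0258) and by 0.38 ± 0.09 with siLAT1-3 (0.0215). Both calls were lost without siNC replicate 1 (0.108 and 0.0971) or siNC replicate 2 (0.0936 and 0.0839), and without the filter (0.108 and 0.0957). They were also lost without siLAT1-2 replicate 2 (0.127) or siLAT1-3 replicate 2 (0.104) for the siRNA concerned.

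THBS1 (ENSG00000137801), the adhesive glycoprotein thrombospondin-1, showed the largest of the tested changes among the members. It stood at 131.66 and 121.65 FPKM with siNC, 80.43 and 74.38 FPKM with siEZH2-1, and 34.26 and 40.1 FPKM with siEZH2-2. It was therefore at 61.1% of siNC with siEZH2-1 and 29.4% with siEZH2-2, log2 changes of -0.70 ± 0.09 (limma adjusted p = 0.00257) and -1.74 ± 0.09 (1.48e-04). With LAT1 silencing the pattern differed: THBS1 stood at 66.06 and 70.21 FPKM with siNC, 75.13 and 78.1 FPKM with siLAT1-2, and 58.89 and 57.37 FPKM with siLAT1-3. There THBS1 rose by 0.17 ± 0.04 with siLAT1-2 (limma adjusted p = 0.0173) and fell by 0.22 ± 0.04 with siLAT1-3 (0.00568). The rise with siLAT1-2 was lost without siLAT1-2 replicate 2 (0.0860), siNC replicate 1 (0.0978) and the filter on low values (0.0831).

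AXL (ENSG00000167601), a receptor tyrosine kinase of the TAM family, fell with 1 siRNA of each pair. In the EZH2 series it stood at 89.74 and 88.88 FPKM with siNC, 81.79 and 81.68 FPKM with siEZH2-1, and 45.85 and 46.92 FPKM with siEZH2-2. Its LAT1 series levels were 42.1 and 43.67 FPKM with siNC, 44.59 FPKM in both libraries with siLAT1-2, and 26.81 and 28.67 FPKM with siLAT1-3. AXL fell to 51.9% of siNC with siEZH2-2, by 0.93 ± 0.05 on the log2 scale (limma adjusted p = 1.48e-04), and to 64.7% with siLAT1-3, by 0.61 ± 0.04 (9.34e-05). With siEZH2-1 the change was -0.13 (95% interval -0.24 to -0.02, limma adjusted p = 0.0879), which passed only under quantile normalization (0.0297). With siLAT1-2 it was 0.06 (95% interval -0.04 to 0.15), which did not pass.

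Of the 3 members that act on the pathway itself, AMOTL2 passed against siNC with siEZH2-2, and LATS2 and AJUBA passed with no siRNA. LATS2 (ENSG00000150457), the kinase that phosphorylates YAP and TAZ, stood at 6.29 and 6.51 FPKM with siNC, 8.17 and 7.89 FPKM with siEZH2-1, and 6.26 and 7.46 FPKM with siEZH2-2. Its siEZH2-1 libraries lay above siNC by 0.29 ± 0.09 on the log2 scale, with a limma adjusted p of 0.0503 that missed the threshold. The same value passed under quantile normalization (0.0451), with a filter at 5 FPKM (0.0405), and without siEZH2-2 replicate 1 (0.0286) or 2 (0.0291). All 6 LATS2 libraries of the LAT1 series lay between 4.17 and 4.89 FPKM, and neither siRNA passed the test.

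AMOTL2 (ENSG00000114019), an angiomotin family protein that binds YAP and holds it out of the nucleus, stood at 20.98 and 21.37 FPKM with siNC, 22.74 and 21.5 FPKM with siEZH2-1, and 16.41 and 17.39 FPKM with siEZH2-2. It fell by 0.31 ± 0.06 with siEZH2-2 (limma adjusted p = 0.0118), a call lost without siEZH2-2 replicate 1 (0.0649), siNC replicate 1 (0.0543) or siNC replicate 2 (0.0607). AMOTL2 in the LAT1 series stood at 15.58 and 15.54 FPKM with siNC, 15.48 and 14.81 FPKM with siLAT1-2, and 14.43 and 13.85 FPKM with siLAT1-3. The change of -0.13 ± 0.04 with siLAT1-3 missed the threshold (limma adjusted p = 0.0507) and passed under quantile normalization (0.0292) and a filter at 5 FPKM (0.0428). AJUBA (ENSG00000129474), a LIM protein that inhibits LATS kinases, stood between 32.93 and 38.71 FPKM in all 12 libraries and passed against siNC with none of the 4 siRNAs.

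**Figure D3:**
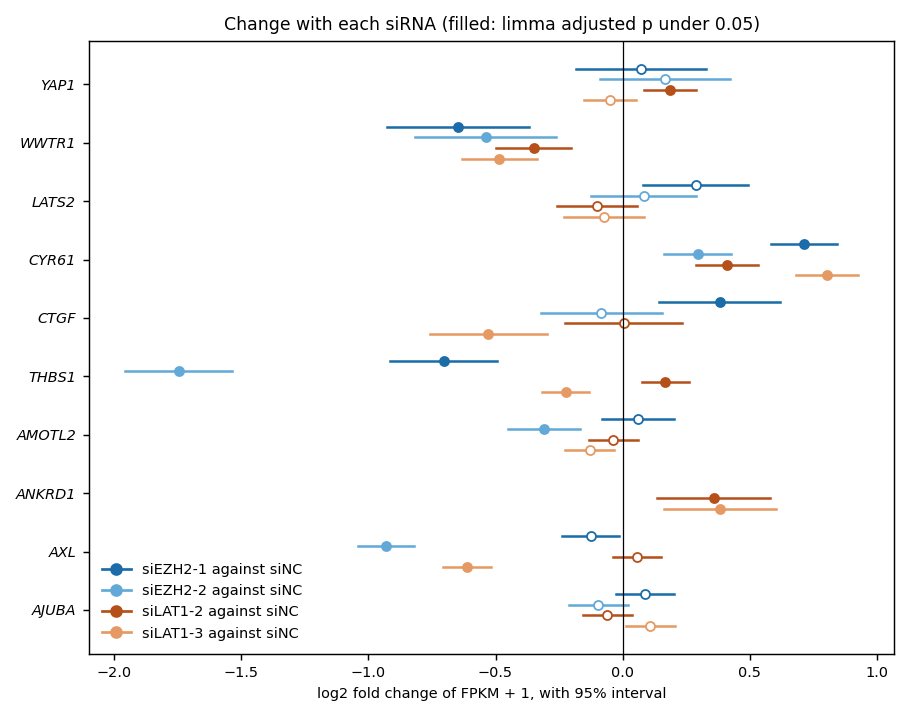
Change of each tested member from siNC on the log2(FPKM + 1) scale, for each siRNA, with its 95% interval from limma and filled points where the adjusted p passed. ANKRD1 was under the filter in the EZH2 series and is not drawn there. WWTR1 lies below 0 and CYR61 above 0 with all 4 siRNAs, whereas CTGF, THBS1 and AXL differ between siRNAs.

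The siRNAs against the same target were compared with each other, without the siNC libraries. Of the 9 members tested, 6 differed between the siEZH2 siRNAs, where 16.3% of all genes did. All 6 were lower with siEZH2-2 and 0 were higher, beside 8.86% lower and 7.40% higher over all genes. They were THBS1 (-1.04), AXL (-0.80), CTGF (-0.47), CYR61 (-0.42), AMOTL2 (-0.37) and AJUBA (-0.18), with limma adjusted p from 2.71e-04 for AXL to 0.0479 for AJUBA. YAP1, WWTR1 and LATS2 did not pass. The median log2 difference of the 9 was -0.37, beside -0.0024 over all genes.

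Between the siLAT1 siRNAs 6 of 10 members differed, where 25.5% of all genes did. With siLAT1-3, 4 were lower and 2 higher than with siLAT1-2, beside 13.1% lower and 12.4% higher over all genes. AXL (-0.67), CTGF (-0.53), THBS1 (-0.39) and YAP1 (-0.24) were lower, and CYR61 (0.39) and AJUBA (0.17) were higher, with limma adjusted p from 8.74e-05 for AXL to 0.0239 for AJUBA. CTGF, THBS1 and AXL were lower with siEZH2-2 than with siEZH2-1, and lower with siLAT1-3 than with siLAT1-2. CYR61 and AJUBA were lower with siEZH2-2 than with siEZH2-1, and higher with siLAT1-3 than with siLAT1-2. The order within a pair is that of the labels and does not match siRNAs across series. These siRNAs also differed in SLC7A5, which with siEZH2-2 stood at 315% of its siEZH2-1 level and with siLAT1-3 at 128% of its siLAT1-2 level. EZH2 did not differ between the siRNAs of either series past the threshold (limma adjusted p = 0.223 and 0.429). The part of SLC7A5 in these differences was not tested.

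Some of these differences rest on single libraries, and the count of 6 in the EZH2 series was 3 without siEZH2-1 replicate 1. CTGF lost its difference in the EZH2 series without any 1 of the 4 silenced libraries (limma adjusted p = 0.0529 to 0.143), AJUBA lost it without any 1 library of the series (0.0905 to 0.195), and AMOTL2 lost it without siEZH2-1 replicate 1 (0.0624). AJUBA also lost its difference in the LAT1 series without any 1 of the 4 silenced libraries (0.0580 to 0.108). THBS1, AXL and CYR61 kept theirs in both series without any 1 library. The counts also depended on processing. In the EZH2 series 5 of 9 members differed under quantile normalization, beside 1945 of 11585 genes. Without the filter on low values 4 of 10 differed there, beside 836 of 29763 genes. In the LAT1 series 3 of 10 differed without that filter, beside 1823 of 28719 genes.

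Several regulators upstream of YAP and TAZ fell in the EZH2 series. Their list and the list of partners below were chosen with earlier results of these data known. The counts of both lists are therefore a description and no test of the genes as a set. Of 22 Hippo kinases, adaptors and upstream regulators listed, 20 were tested, and with the mean of both siEZH2 siRNAs 2 rose, 7 fell and 11 did not pass. The shares over all genes were 17.0% higher and 13.0% lower, and the list's median was -0.18 beside 0.03 over all genes. The count that fell was 2 without siNC replicate 1 and 2 without the filter on low values. FRMD6, a FERM-domain activator of the Hippo cascade, fell the most, by 0.96 ± 0.08 (limma adjusted p = 5.92e-04), with a mean of 8.96 FPKM for siNC, 2.93 FPKM for siEZH2-1 and 5.61 FPKM for siEZH2-2. PTPN14, a phosphatase that binds YAP, fell by 0.66 ± 0.13, TAOK1, a kinase upstream of MST1 and MST2, by 0.62 ± 0.16, and WWC2, a relative of the scaffold KIBRA, by 0.55 ± 0.11. This call of FRMD6 held under every alternative run. Without siNC replicate 1 the limma adjusted p became 0.0750 for PTPN14, 0.193 for TAOK1 and 0.0915 for WWC2, and TAOK1 also lost its call without siEZH2-1 replicate 2 (0.0640) or siEZH2-2 replicate 1 (0.0579). All 3 lost their calls without the filter on low values (0.0835, 0.161 and 0.0814), and with siEZH2-2 alone TAOK1 (0.0604) and WWC2 (0.195) did not pass.

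In the LAT1 series 21 regulators were tested, of which 4 rose, 5 fell and 12 did not pass, where 19.3% of all genes rose and 15.3% fell. The median was -0.02 beside 0.01, and the count that fell was 2 without siNC replicate 1. MAP4K4, a kinase that can activate LATS1 and LATS2, rose by 0.49 ± 0.03 (limma adjusted p = 9.99e-05), with means of 10.2 FPKM for siNC, 15.1 FPKM for siLAT1-2 and 14.3 FPKM for siLAT1-3. STK4, the gene of MST1, fell by 0.45 ± 0.03 on average, with -0.74 for siLAT1-2 and -0.15 for siLAT1-3. The siLAT1-3 value of STK4 lost its call without any 1 library of siLAT1-3 or siNC (limma adjusted p = 0.0683 to 0.136). AMOTL1 rose by 0.31 ± 0.04. AMOT rose by 0.23 ± 0.07, a call at 0.0476 that was lost under quantile normalization (limma adjusted p = 0.0672), with a pseudocount of 0.1 (0.0535), without the filter (0.129) and without any 1 library of the series (0.0713 to 0.172). WWC1, the gene of KIBRA, is added because its values went apart: it rose by 0.42 with siLAT1-2 and fell by 0.74 with siLAT1-3, and it was chosen after its values were seen.

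Among the TEAD factors and other partners of YAP and TAZ, 5 of 7 were tested. With the mean of both siEZH2 siRNAs 1 rose, 1 fell and 3 did not pass, where 17.0% of all genes rose and 13.0% fell. With siLAT1 2 rose, 1 fell and 2 did not pass, where 19.3% rose and 15.3% fell. The medians were 0.07 and 0.12, beside 0.03 and 0.01 over all genes. The siEZH2 mean covers siRNAs that went apart in this list. With siEZH2-1 alone 4 rose and 1 fell (median 0.32), where 15.9% of all genes rose and 11.4% fell. With siEZH2-2 alone 0 rose and 2 fell (median -0.19), where 13.9% rose and 10.9% fell. These counts were not firm: without the filter on low values TEAD1 lost its siEZH2-1 call (limma adjusted p = 0.0857). Its siEZH2-2 call was lost without the filter (0.167) and with the replicate number as a block (0.0624). TEAD1 fell with the mean of the siRNAs in each series. Its means were 22.2 FPKM with siNC, 11.4 FPKM with siEZH2-1 and 13.7 FPKM with siEZH2-2, a fall of 0.78 ± 0.15 (limma adjusted p = 0.00988) that lost its call without siNC replicate 1 (0.0694) and without the filter on low values (0.0795). With siLAT1 TEAD1 fell by 0.21 ± 0.04 on average (0.00472), with means of 21.1 FPKM for siNC, 20.1 FPKM for siLAT1-2 and 16.3 FPKM for siLAT1-3, and siLAT1-2 alone did not pass (limma adjusted p = 0.244). VGLL4, which competes with YAP for TEAD, rose by 0.26 ± 0.06 with the siEZH2 mean and by 0.24 ± 0.06 with the siLAT1 mean. With siEZH2-2 alone (0.13, limma adjusted p = 0.249) and siLAT1-3 alone (0.13, 0.216) it did not pass. The siEZH2 call of VGLL4 was lost without any 1 library except siEZH2-2 replicate 2 (limma adjusted p up to 0.125), and its siLAT1 call without siLAT1-2 replicate 2 (0.0513) or siNC replicate 1 (0.117) or 2 (0.0814). Both were lost without the filter on low values (0.0645 and 0.0570).

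TEAD4, chosen after its values were seen for the EZH2 series, went in opposite directions with the siEZH2 siRNAs. Its means were 16.1 FPKM with siNC, 25.2 FPKM with siEZH2-1 and 11.35 FPKM with siEZH2-2, so it rose by 0.61 ± 0.07 with the first (limma adjusted p = 0.00164) and fell by 0.47 ± 0.07 with the second (0.00408). The difference between the siRNAs was -1.08 ± 0.07 (3.29e-04). With siLAT1 TEAD4 rose by 0.29 ± 0.04 on average.

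A list of 16 further reported YAP and TAZ target genes, none of them a member, gave another picture than CYR61. The list was chosen with earlier results of these data known, so its counts are a description and no test of the targets as a set. With the mean of both siEZH2 siRNAs, 10 were tested, 10 fell and 0 rose, against 13.0% lower over all genes, and the median was -0.64. Over all genes 17.0% were higher, and the all-gene median was 0.03. The other 6 were under the filter on low values and have no test, and 5 of them had means above siNC with both siRNAs. IGFBP3 averaged 0.595 FPKM with siNC, 0.985 FPKM with siEZH2-1 and 0.92 FPKM with siEZH2-2, and CCDC80 averaged 0.11, 0.39 and 0.19 FPKM in the same order. ARHGEF17 averaged 0.335, 0.45 and 0.56 FPKM, RBMS3 0.82, 1.0 and 0.835 FPKM, and NT5E 0.01, 0.02 and 0.015 FPKM. FOXF2 was listed at 0 in all 6 libraries. The counts of falls cover the tested genes alone. With single siRNAs 7 fell with siEZH2-1, where 11.4% of all genes did, and 9 with siEZH2-2, where 10.9% did. TGFB2, a secreted growth factor, fell by 0.87 ± 0.10, with means of 20.2 FPKM for siNC, 8.34 FPKM for siEZH2-1 and 13.4 FPKM for siEZH2-2. F3, the gene of tissue factor, fell by 0.69 ± 0.05, from 295 FPKM to 247 and 134 FPKM. FJX1 fell by 0.67 ± 0.06 and PTPN14, which is also in the regulator list, by 0.66 ± 0.13. Without the filter on low values, F3 (limma adjusted p = 0.101), CRIM1 (0.202) and PTPN14 (0.163) lost their calls with siEZH2-1 alone. With the replicate number as a block the same genes lost them too (0.0573, 0.0859 and 0.0643). With siEZH2-2 alone, PTPN14 (0.0925), ASAP1 (0.101) and TGFB2 (0.0953) lost their calls without the filter. The count of 10 became 5 without siNC replicate 1 and 5 of 15 tested without the filter on low values.

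In the LAT1 series 15 of the 16 were tested, of which 2 rose, 6 fell and 7 did not pass, where 19.3% of all genes rose and 15.3% fell. The median was -0.09 beside 0.01 over all genes. CCDC80, a secreted matrix protein, rose by 0.87 ± 0.03 (limma adjusted p = 1.33e-05), with a mean of 14.4 FPKM for siNC, 27.9 FPKM for siLAT1-2 and 26.2 FPKM for siLAT1-3. CRIM1 fell by 0.56 ± 0.03, F3 by 0.47 ± 0.05 and ASAP1 by 0.43 ± 0.04. F3 stood at 152 FPKM with siNC, 110 FPKM with siLAT1-2 and 109 FPKM with siLAT1-3, so both siRNAs gave nearly the same level. The levels of CRIM1 were 25.4 FPKM with siNC, 12.5 FPKM with siLAT1-2 and 22.8 FPKM with siLAT1-3. The count of 6 was the same under every alternative run.

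**Figure D4:**
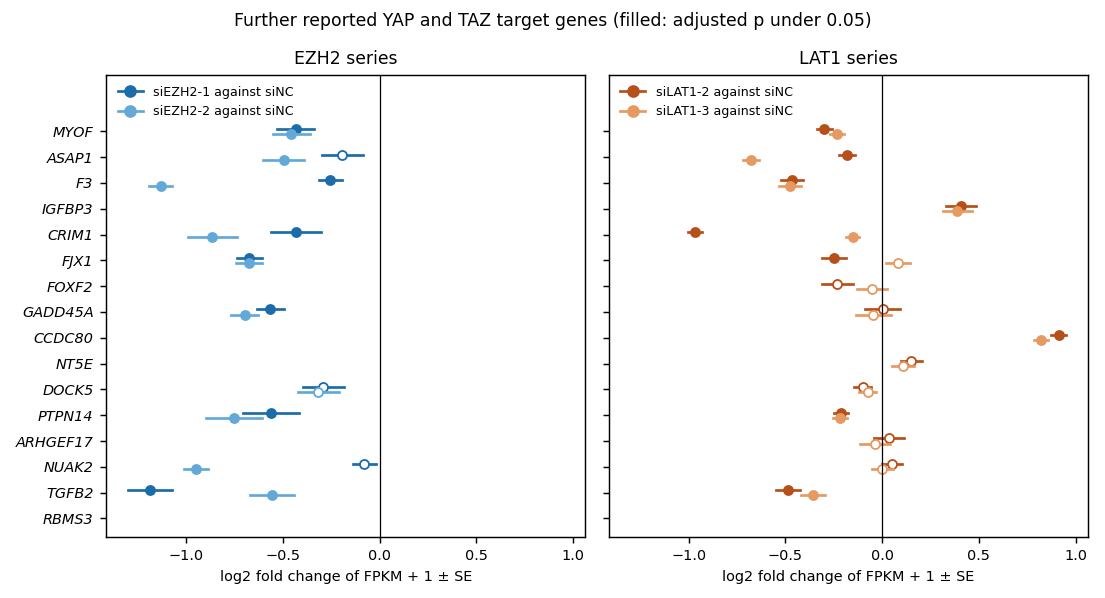
Change of each further reported target gene from siNC on the log2(FPKM + 1) scale, for each siRNA, as the estimate ± SE from limma, with filled points where the adjusted p passed. Genes under the filter are not drawn. All 10 tested genes lie below 0 with both siEZH2 siRNAs, while CCDC80 lies highest with siLAT1-2 (0.91) and CRIM1 lowest with it (-0.97).

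The baselines of the series differed for several members, as values set side by side from separate tables with no test. With siNC, YAP1 averaged 23.8 FPKM for EZH2 and 40.5 FPKM for LAT1, CYR61 86.5 and 30.1 FPKM, THBS1 127 and 68.1 FPKM, AXL 89.3 and 42.9 FPKM, and CTGF 1.37 and 6.52 FPKM. CYR61 and CTGF thus differed in opposite directions between the control groups. The gaps were larger for some genes of the list of further targets, where siNC averaged 0.595 and 135 FPKM for IGFBP3, 0.11 and 14.4 FPKM for CCDC80, 0.01 and 4.48 FPKM for NT5E, and 0 and 7.21 FPKM for FOXF2. What set the control groups apart was not tested. Their changes above are all within a series.

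For each member that passed with at least 3 of the 4 siRNAs, the genes with the most similar changes were found among 10803 genes tested in both series, by the root mean square of the differences over the 4 log2 changes. For WWTR1 they were LIG4 (0.04), CLOCK (0.06) and LIMA1 (0.08), each of which fell with every siRNA. For CYR61 they included RP11-339B21.10 (0.08) and RP11-347C12.10 (0.09), both higher with every siRNA. THBS1 had no neighbour as close, with STK17B (0.17), LINC00657 (0.18) and UGCG (0.20) the nearest. These are the closest of many genes over 4 values, and pairs of those values share siNC.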

How the data were processed

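RNA was measured in 12 of the 14 samples, all KYSE510, and the 2 CUT&Tag samples were not analysed here. The authors deposited a table for each series, with a column for every library and no unit in its header. The deposited values were read as FPKM, because low values of short RNA genes rise in steps of whole reads scaled by gene length. At the depth estimated for each library, 82.7% to 88.4% of those values were whole within 0.12 reads. The search for that depth raises this share. Per the submitters' processing notes the tools were STAR, Bowtie, Bowtie2, Picard, Trim Galore and SEACR, with hg38 and hg19 as builds, and no roles are stated. How reads were counted, over which gene lengths and with which strand setting, is not given in the sources used here. The siNC libraries of the LAT1 series share a number in their titles, so the numbers in their descriptions were used.

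Each table was fitted alone, and levels set across tables have no test. The filter asked for a mean of 1 FPKM or more over a table's 6 libraries and left 11585 genes for EZH2 and 11678 for LAT1. Values as log2(FPKM + 1) were fitted with limma 3.58.1 (trend) in R 4.3.3 with 1 term per group. This scale understates the change of low genes. P-values were adjusted by Benjamini-Hochberg over all genes tested and called under 0.05, two-sided. The labels do not say whether a group's libraries are separate cultures, and p-values then measure no more than how these libraries spread, possibly for technical reasons. The fit was also run on simulated data with independent noise in each library. Such data lack the replicate differences shared between groups of the EZH2 series, given below, so that run does not check the calls against them. The alternatives tried were a pseudocount of 0.1, quantile normalization, a filter at 5 FPKM, no filter, a block for the replicate number, and leaving out single libraries.

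Genes named were the 10 members, the siRNA targets, up to 4 called genes with the largest mean change per pathway list and series, and the 3 genes most like each member called with at least 3 of 4 siRNAs. A gene that met this rule is not reported here. The members and all lists (regulators, partners and targets of YAP and TAZ, and squamous, fibroblast, immune and endothelial markers) were chosen with earlier results of these data known. Promoter sequences came from RefSeq (GRCh38.p14) by symbol, with 9 of 10 members matched, and coordinates of the deposited tables were not used. Python 3.11.15 made the tables and plots.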

Additional observations from a re-analysis of the deposited data

How the results depend on the processing

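No value of a member against siNC or between siRNAs reversed its direction past the threshold under any alternative run. Of 368 values of members under alternatives other than leaving out a library, 342 kept their side of the threshold, 21 lost it and 5 gained it. Of 456 values with 1 library left out, 404 kept it, 49 lost it and 3 gained it. Without the filter on low values, 29763 genes were tested in place of 11585 for EZH2, and 28719 in place of 11678 for LAT1. The counts below are thus out of unlike totals. In the EZH2 series 1820 genes passed with the siEZH2 mean in place of 3481 and 1604 with siEZH2-1 in place of 3156. With siEZH2-2 1554 passed in place of 2874, and between these siRNAs 836 in place of 1883. In the LAT1 series 2402 passed with siLAT1-3 in place of 3672 and 1823 between the siRNAs in place of 2981. The members that passed were then 2 with siEZH2-1, 3 with the siLAT1 mean, 2 with siLAT1-2 and 3 between the siLAT1 siRNAs, and 5 further target genes fell with the siEZH2 mean.

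With 1 library left out, members that passed ran from 3 to 5 with the siEZH2 mean, 2 to 5 with siEZH2-1, 2 to 5 with siEZH2-2 and 3 to 5 between them. They ran from 3 to 5 with the siLAT1 mean, 2 to 5 with siLAT1-2, 4 to 6 with siLAT1-3 and 5 to 6 between them. Genes that passed ran, in the same order, from 1357 to 3343, 1204 to 3045, 1440 to 2472 and 649 to 1502, and from 2290 to 3610, 2363 to 3755, 2140 to 3534 and 1952 to 2541. Further target genes that fell ran from 5 to 10 with the siEZH2 mean and stayed at 6 with the siLAT1 mean. A library left out leaves its group with 1 library, which is assumed to vary like the other groups. The cause of these shifts was not tested, and the part of the smaller number of libraries in them was not set apart.

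Replicate numbers did not line up between the groups of the EZH2 series. The replicate difference correlated across genes at -0.353 for siEZH2-1 with siEZH2-2, 0.355 for siEZH2-1 with siNC and -0.339 for siEZH2-2 with siNC. Replicate 1 of siEZH2-2 thus varied with replicate 2 of the other groups. A block by number does not follow such a shared difference, and the main fit has no term for it. Its cause was not tested. In the LAT1 series the correlations were 0.018, 0.033 and 0.083. With the replicate number as a block, 2007 genes passed with siEZH2-1 and 1021 between the siEZH2 siRNAs. Among members, CTGF with siEZH2-1 (limma adjusted p = 0.0643), CTGF between the siEZH2 siRNAs (0.0571) and AJUBA between them (0.122) lost their calls. Of the pathway genes given above by their change with the mean of both siRNAs, TAOK1 (0.0553) and VGLL4 (0.0592) with the siEZH2 mean and AMOT (0.0734) with the siLAT1 mean lost theirs. Low levels limited ANKRD1 in the EZH2 series, where it averaged 0.575 FPKM with siNC, 0.91 FPKM with siEZH2-1 and 0.63 FPKM with siEZH2-2. Its mean over the 6 libraries was thus under the filter, and the main fit gave it no test.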
